A study of Mus musculus with 4 samples.

Results

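The microRNA (miRNA) profile of mouse small-intestinal organoids on day 1 of culture was set against that of isolated crypt epithelium, the tissue from which such organoids are grown. The comparison uses 2 of the 4 samples measured, with 1 array for each: the Organoid on day 1 sample and the Crypt sample. The other samples were Organoid on day 5 and Villus, and all 4 were total RNA labelled with Cy5. Of 1900 miRNA probes on the array, the 1897 that carried no quality mark on any array were compared. The strain, age and number of mice, the culture medium and any pooling of samples were not stated in the labels. With 1 array a group there is no replicate, so no p-value or replicate error is given: every difference is one between these 2 RNA samples, and "called" means at least 2-fold apart.

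Crypts are the pockets of the small intestine that hold its stem cells, the dividing cells that descend from them and the Paneth cells at their base. Placed in a gel matrix with growth factors, isolated crypts close into cysts that later bud into new crypt-like domains. A miRNA is cut from a hairpin precursor, whose arms are named 5p and 3p, and it pairs with messenger RNAs mainly through its seed, bases 2 to 8, to lower their output. miR-192, miR-194 and miR-215 are abundant in intestinal epithelium, the miR-200 family maintains epithelial identity by repressing Zeb1 and Zeb2, the miR-17-92 cluster promotes proliferation, and let-7 restrains growth and accumulates as cells differentiate. In bulk RNA, fewer cells of a type and less of a miRNA per cell cannot be told apart.

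The sequences of the miRNAs on which the results turn are given first, as RefSeq mature sequences (mouse build GRCm38.p6) with the seed in capitals. The first set holds the 12 largest differences upward on day 1, of which some share a seed: miR-3473b and miR-3473e have one seed (GGCUGGA), miR-8113 and miR-8119 another (AGGAGAG), and the other 8 have a seed each.
miR-6931-5p: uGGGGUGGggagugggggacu
miR-711: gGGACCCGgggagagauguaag
miR-6769b-5p: cCUGGUGGguggggaagagc
miR-7036a-5p: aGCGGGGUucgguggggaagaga
miR-6937-5p: uAGCUGUAagggcugggucugugu
miR-8099: cCAAGGCGugggaaagguugu
miR-3473b: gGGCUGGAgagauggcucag
miR-3473e: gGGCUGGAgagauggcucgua
miR-8113: cAGGAGAGucaggggcaaguag
miR-8119: gAGGAGAGggagcuaggguc
miR-128-2-5p: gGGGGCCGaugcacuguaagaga
miR-7053-5p: uGGGGAAAggcaggcuacugg
miR-6931-5p lies at chr11:102999896-102999916 (minus strand, within the span of Dcakd), and miR-711 at chr9:108969970-108969991 (plus strand, within Col7a1). miR-6769b-5p lies at chr8:71631083-71631102 (minus strand, within Unc13a), and miR-7036a-5p at chr5:137296661-137296683 (minus strand, within Srrt). Of the other 8, 7 lie within the span of 1 annotated gene, and miR-8099 has 2 loci, at chr3:95139131-95139151 within Lysmd1 and at chr12:93927373-93927393 within no gene span. Whether these positions are exonic or intronic was not analysed here.

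The second set holds the 12 largest differences downward with let-7a-5p, miR-200b-3p and miR-29b-3p of the same or like families, plus miR-21a-5p and miR-210-3p from the injury and hypoxia group. Seeds shared within the set are UGACCUA in miR-192-5p and miR-215-5p, AAAGUGC in miR-17-5p and miR-20a-5p, AACACUG in miR-200a-3p and miR-141-3p, AAUACUG in miR-429-3p and miR-200b-3p, and GAGGUAG in let-7.
miR-26a-5p: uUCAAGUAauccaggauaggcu
miR-6412: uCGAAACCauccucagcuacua
miR-215-5p: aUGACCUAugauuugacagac
miR-192-5p: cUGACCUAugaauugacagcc
miR-194-5p: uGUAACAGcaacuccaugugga
let-7f-5p: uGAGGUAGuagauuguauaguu
let-7a-5p: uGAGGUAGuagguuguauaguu
miR-17-5p: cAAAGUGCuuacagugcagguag
miR-20a-5p: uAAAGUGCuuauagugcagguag
miR-200a-3p: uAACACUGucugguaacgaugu
miR-141-3p: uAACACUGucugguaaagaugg
miR-429-3p: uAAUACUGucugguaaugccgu
miR-200b-3p: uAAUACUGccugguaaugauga
miR-16-5p: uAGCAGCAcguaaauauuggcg
miR-29b-3p: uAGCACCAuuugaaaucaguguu
miR-21a-5p: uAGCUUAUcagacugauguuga
miR-210-3p: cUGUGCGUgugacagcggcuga
miR-192-5p lies at chr19:6264857-6264877 (plus strand), beside a copy of miR-194-5p at chr19:6264658-6264679. miR-215-5p lies at chr1:185313610-185313630 (plus strand, within Iars2), beside the other copy of miR-194-5p at chr1:185313325-185313346. miR-17-5p and miR-20a-5p lie together at chr14:115043684-115043706 and chr14:115044183-115044205, and miR-429-3p, miR-200a-3p and miR-200b-3p within chr4:156053916-156055742.

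Most probes were brighter on the day 1 array than on the crypt array. A probe was taken as detected above the mean of the empty spots plus 2 SD, a limit of 82.3 intensity units on day 1 and 69.5 in crypt, and 1555 of 1897 miRNAs passed it on day 1 against 1268 in crypt (1359 on day 5 and 1506 in villus). The spots named Spike Control in the files stood 16422 units above empty spots on day 1 and 8540 in crypt, a ratio of 1.92. The median unnormalised intensity ratio, day 1 over crypt, was 1.56 over the 1226 miRNAs detected on both arrays, with the level of empty spots included. Taken above empty spots, as the Spike Control ratio was, the median ratio of the 1226 was 5.30. Most signals were faint: 1074 of the 1226 crypt intensities lay under 2 times the crypt limit. The day 1, crypt and villus arrays shared a slide, and the day 5 array was on another. Spots of the 6 control probes printed 8 times each varied with an SD of 0.038 to 0.129 on the log2 scale, which gives a spot-to-spot SD of a difference of 0.15; this covers spotting and scanning and not the spread between cultures or mice.

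After quantile normalisation, which gives all arrays one distribution, 83 of 1597 tested miRNAs were at least 2-fold higher on day 1 than in crypt (5.2%) and 99 were at least 2-fold lower (6.2%). Together these were 11.4% of those tested. Of the 1226 miRNAs detected on both arrays, 925 (75.4%) differed by less than 1.5-fold, and the SD of all 1226 log2 differences was 0.76. Most of the 1226 were faint in crypt, and differences of faint probes are compressed, so these shares depend on the processing. With the mean of the empty spots subtracted instead, 244 miRNAs were called higher and 327 lower. A difference of at least 4-fold was reached by 24 miRNAs upward and 28 downward. A further 329 miRNAs were detected on day 1 alone and 42 in crypt alone; for these only bounds are given.

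The split between higher and lower depends on the scaling, and the calls in each direction differed in their measured intensities. The 83 higher miRNAs had a median intensity of 1188 on day 1 and 135 in crypt, and every one of them was brighter on day 1 before normalisation, by 3.25 to 99.8 times (median 8.82). The 99 lower miRNAs had a median intensity of 280.4 on day 1 and 269 in crypt, a median ratio of 1.08, and only 35 of them were dimmer on day 1 before normalisation. They are therefore lower relative to the rest of the array, whose signal was higher on day 1. Scaled to the Spike Control spots, 1030 miRNAs passed 2-fold upward and 74 downward; scaled to the 75th percentile, 122 and 46; scaled to the median, 198 and 1; in the authors' deposited values, 418 and 260. Under these 4 the median log2 difference of all miRNAs detected on both arrays was 1.46, -0.33, 0.20 and 0.44, beside 0.01 in the main setting.

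**Figure D1:**
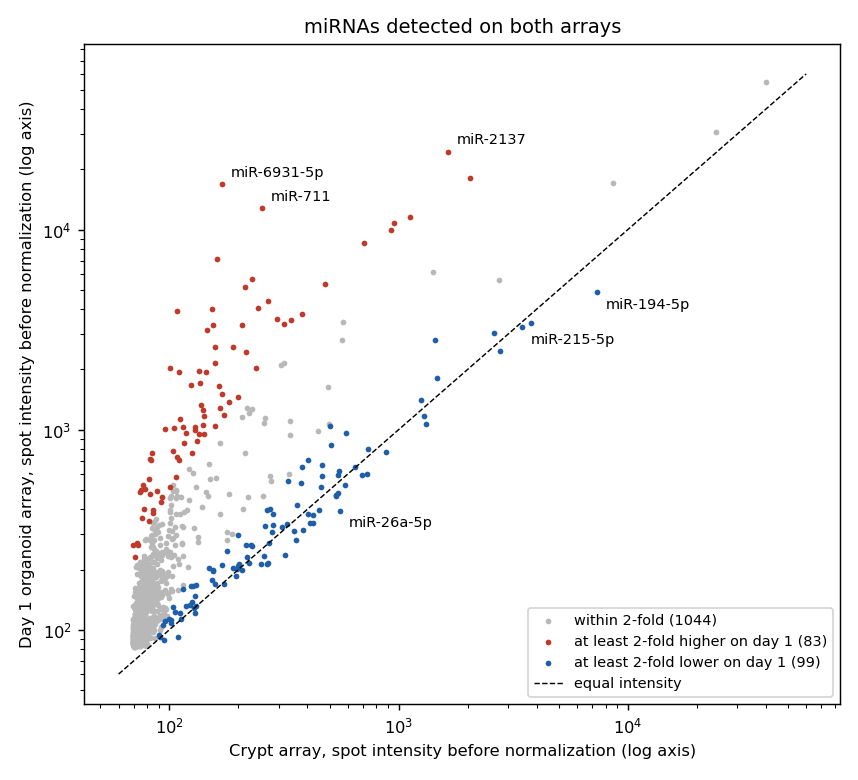
Spot intensity of each of the 1226 miRNAs detected on both arrays, on the day 1 organoid array (vertical, log axis) against the crypt array (horizontal, log axis), before normalisation. Red points are the 83 called higher and blue points the 99 called lower after normalisation; the red points stand well above the dashed line of equal intensity, and the blue points lie along it.

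The plot of intensities shows that miRNAs bright in crypt went separate ways on day 1. Of 108 miRNAs with a crypt intensity of at least 200, a level chosen after the values were seen, 56 had a ratio of day 1 over crypt under 1.5 (median 0.96) and 26 had a ratio of 5 or more (median 10.8), with another 26 in between. Of the 56, 42 carry a number below 500, as the miRNAs named earliest do, and 54 were called lower. Of the 26 with the highest ratios, 4 carry such a number, 20 carry a number of 1000 or more, and 19 were called higher. The calls rest on the same intensities as the ratios, so the calls within each group follow largely from the cut.

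miR-6931-5p had the largest difference of all. Its intensity was 16920 on day 1, against 169.5 in crypt, and it was 28.7-fold higher after normalisation (log2 difference 4.84). On the other arrays it read 1187 on day 5 and 2485 in villus, so the day 1 sample was the high one of the 4.

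miR-711, whose sequence lies within the span of the collagen VII gene Col7a1, had an intensity of 12805 on day 1 and 253 in crypt (log2 difference 3.80). miR-6769b-5p read 7124 on day 1 and 161 in crypt (3.71), and miR-7036a-5p read 3914 and 108 (3.56). Each of these was more than 10 times as bright on day 1 before any scaling. miR-6937-5p followed with 4005 on day 1 and 153 in crypt (2.99), and miR-8099 with 2044 on day 1 and 100.5 in crypt (2.85). No role is given here for these miRNAs.

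The pair that shares the seed GGCUGGA behaved alike. miR-3473b had an intensity of 5642 on day 1 against 228 in crypt (2.85), and miR-3473e had 5185 against 214 (2.83). Their sequences differ only near the 3′ end, so their probes may share signal. The pair with the seed AGGAGAG gave 3337 on day 1 against 155 in crypt for miR-8113 (2.48), and 4057 against 244 for miR-8119 (2.25). The list of the 12 largest was completed by miR-128-2-5p, with 3157 on day 1 and 146 in crypt (2.45), and miR-7053-5p, with 1944 and 110.4 (2.44). miR-128-2-5p is the minor arm of a hairpin within Arpp21 whose 3p arm, miR-128-3p, is a brain miRNA; miR-128-3p itself read 85.4 on day 1 and 71.3 in crypt (-0.20).

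Across the main setting and 10 other background steps and scalings, 41 miRNAs were at least 2-fold higher on day 1 in all 11. They include 9 of the 12 largest; miR-7036a-5p, miR-7053-5p and miR-8119 held in 10. Others of the 41 with a low number or a known hairpin included miR-328-5p (4385 on day 1, 268.7 in crypt, log2 difference 2.12), miR-204-3p (702 and 82.9, 2.08), miR-326-5p (3567 and 295, 1.62) and miR-149-3p (3786 and 379, 1.27). miR-2137 was the brightest of them, with 24548 on day 1 and 1637 in crypt (1.96). No miRNA was at least 2-fold lower in all 11 settings. miR-194-5p was lower in 10, all but the scaling in which it was itself a scaling miRNA. These higher and lower counts cannot be weighed against each other, as they depend on the settings chosen. Scaling to the median gave 198 higher calls and 1 lower, and scaling to 8 epithelial miRNAs, miR-194-5p among them, gave 1373 and 4. Some of the settings differ from one another by a constant alone, so the 11 are not separate support.

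**Figure D2:**
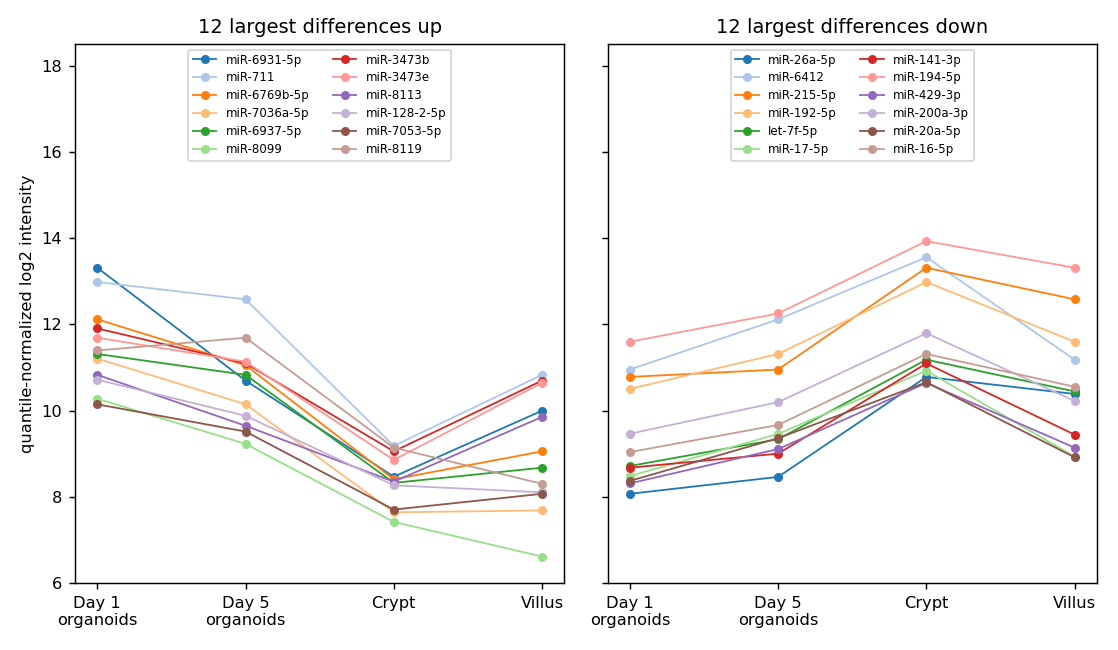
Quantile-normalised log2 intensity (vertical) of the 12 largest differences up (left panel) and down (right panel) in day 1 organoids, day 5 organoids, crypt and villus, 1 array each; lines join the points of 1 miRNA. The 12 on the left are highest on day 1 except miR-8119, which is highest on day 5, and the 12 on the right are highest in crypt.

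The miRNAs that mark intestinal epithelium were lower relative to the rest of the array. Of 7 arms cut from the miR-192, miR-194 and miR-215 hairpins and detected on both arrays, 5 were at least 2-fold lower and none was higher, with a median of -1.23, beside 0.01 for all miRNAs. Such a share was common among bright miRNAs of like composition: in the top tercile of mean level, 42 of 55 miRNAs with 40 to 50% GC and 17 of 21 under 40% GC were called lower. miR-194-5p read 4855 on day 1 and 7313 in crypt (log2 difference -2.33) and was thus among the 35 that were dimmer on day 1 before scaling. miR-215-5p read 3251 on day 1 and 3443 in crypt (-2.53), and miR-192-5p read 2477 and 2778 (-2.48), near-equal intensities on a brighter array. The 3p arms of miR-192 and miR-215 were also called, at -1.23 and -1.07, and those of miR-194 were not, at -0.52 and -0.76. The summed intensity of the 7 above empty spots was 10785 on day 1 and 13583 in crypt, so these markers were well above the empty spots in both samples.

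The miR-200 family, which represses Zeb1 and Zeb2, had calls in its 3p arms only. All 5 of its 3p arms were lower by at least 2-fold: miR-141-3p, with 591 on day 1 and 689.5 in crypt (-2.42), miR-429-3p (465.8 and 535, -2.33), miR-200a-3p (1067 and 1312, -2.33), miR-200b-3p (1170.4 and 1287, -2.15) and miR-200c-3p (799 and 736, -2.14). These are the guide strands, the arms that act on targets. The 4 measured 5p arms, the passenger strands, lay between -0.71 and 0.03 and none was called. They read only 73.0 to 85.7 in crypt, near the limit of 69.5. Dim probes seldom reached 2-fold: none of 409 miRNAs in the lowest tercile of mean level was called. In the middle tercile, 5 of 408 were called lower. An arm difference therefore cannot be told apart from low signal. All 9 measured arms had a median of -2.14. The 3p arms of this family have under 50% GC, where lower calls were common among all bright miRNAs, as given above.

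The proliferation-associated miR-17-92 cluster was lower as well, with 6 of 9 members called lower, none higher and a median of -1.52. Lower calls were common among all bright miRNAs under 50% GC, as given above, and most of these calls have such a composition. miR-17-5p, which targets cell cycle inhibitors, read 528 on day 1 and 585 in crypt (-2.44). miR-20a-5p read 481 and 543 (-2.29), and miR-19b-3p read 473 on day 1 and 534 in crypt (-2.24). miR-19a-3p (-1.71), miR-18a-5p (-1.52) and miR-92a-3p (-1.19) completed the 6 calls. The 3 members not called were the minor arms miR-17-3p (-0.81), miR-20a-3p (-0.47) and miR-18a-3p (0.08). These 3 were dim, at 70.1 to 95.8 in crypt, where differences are compressed. The sister clusters miR-106b-25 and miR-106a-363 had 6 of 13 members called lower and none higher, beside 6.2% called lower of all tested miRNAs. They were led by miR-20b-5p (343 on day 1 and 423 in crypt, -2.21) and miR-106a-5p (375 and 425, -2.16).

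In the main setting let-7 had the same direction in nearly every member. Of 10 let-7 family miRNAs, 9 were at least 2-fold lower, none was higher and the median was -1.90. Such a share was common among bright miRNAs of like composition. In the top tercile of mean level, 42 of 55 with 40 to 50% GC and 17 of 21 under 40% GC were called lower. let-7f-5p read 601 on day 1 and 731 in crypt (-2.46), let-7a-5p read 649 on day 1 and 644 in crypt (-2.25), and let-7g-5p read 395 and 448 (-2.15). let-7k was the one not called, at -0.81. With the background column subtracted, let-7f-5p (1.25), let-7a-5p (1.19) and let-7b-5p (1.61) were instead at least 2-fold higher. As these probes differ by few bases, members of the family may share signal.

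Further families of broadly expressed miRNAs lay on the same side. Their shares stand beside those of all bright miRNAs of low GC content. In the top tercile of mean level, 42 of 55 with 40 to 50% GC and 17 of 21 under 40% GC were called lower. All 3 members of miR-29, which represses collagen genes, were called lower, with miR-29b-3p at 280.4 on day 1 and 356 in crypt (-2.23). In the miR-30 family 5 of 6 were called lower, with a median of -1.63 and miR-30b-5p lowest (314 on day 1 and 382 in crypt, -2.23). miR-26a-5p, which targets Ezh2, had the largest difference downward of all: 394 on day 1 and 554 in crypt (-2.71). With miR-148a-3p and miR-26b-5p (each -2.14), it made 3 calls among 5 members of the miR-26 and miR-148 families, miR-152-3p included. The cell cycle repressor miR-16-5p read 773 on day 1 and 885 in crypt (-2.27), and 4 of 5 members of its family were called lower. Among 5 arms of the miR-23a and miR-23b clusters, 3 were called lower; miR-23a-3p, at 399.6 on day 1 and 209.95 in crypt (-0.70), and miR-27a-3p, at 310 and 178 (-0.85), were not, while their cluster's paralogues miR-23b-3p (-1.26) and miR-27b-3p (-1.62) were. miR-6412 had the second largest difference downward (3426 on day 1 and 3764 in crypt, -2.60); no role is given for it here.

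**Figure D3:**
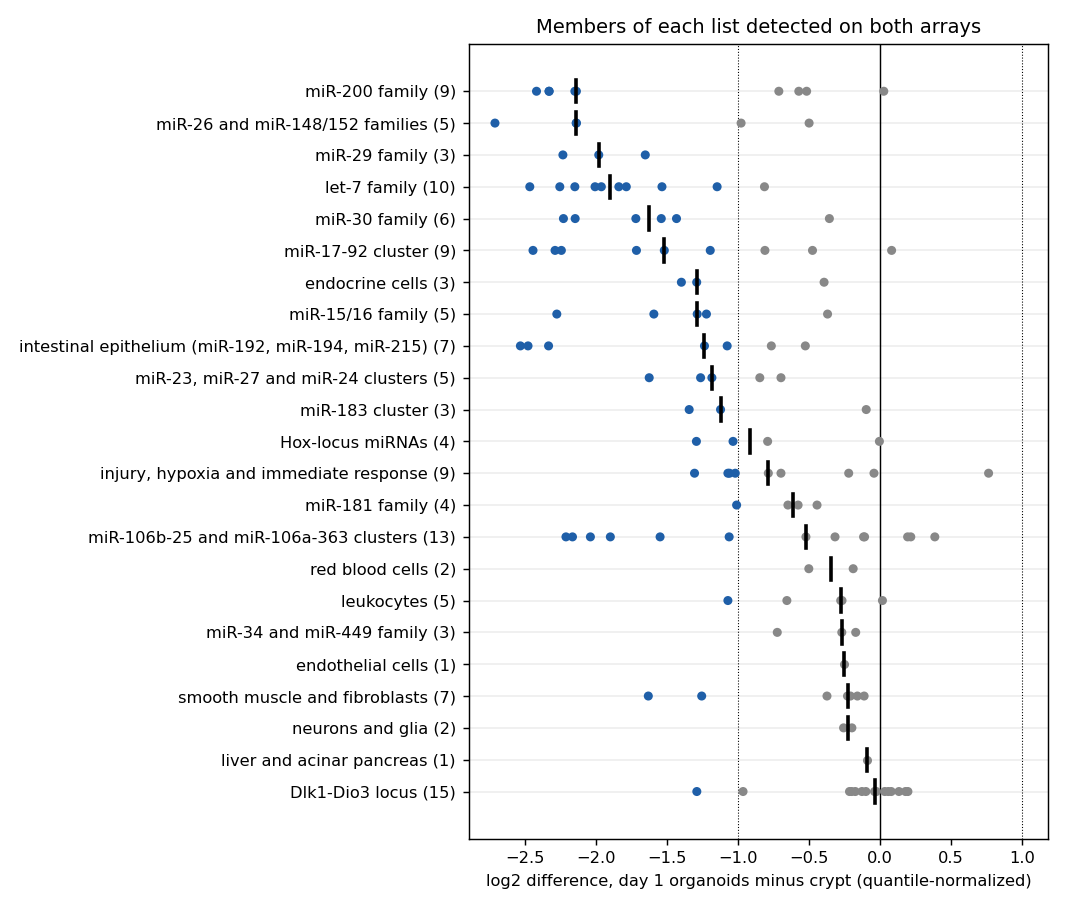
Log2 difference, day 1 organoids minus crypt after quantile normalisation (horizontal), of each miRNA detected on both arrays in each list, with the number of members in brackets; black bars are list medians, and dotted lines mark 2-fold. Blue points are called lower; no point of these lists passes 2-fold higher, and the nearest to it is miR-210-3p at 0.76.

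miRNAs known from injury, hypoxia and early responses did not move as a block. miR-21a-5p, which is raised in many stressed and inflamed epithelia, was brighter on day 1 (2808) than in crypt (1439.9), yet lower after quantile normalisation (-1.30). Scaled to the Spike Control spots it was at 0.05, so its direction depends on the scaling. miR-31-5p, a regulator of intestinal stem cell renewal, had the same pattern, with 652 on day 1, 378 in crypt and a normalised difference of -1.06. miR-210-3p, the hypoxia-induced miRNA, had the highest difference of the 9 in this list: 218 on day 1 and 76.0 in crypt (0.76, under 2-fold). It was at least 2-fold higher in 6 of the 11 settings. In all, 4 of the 9 were called lower and none higher, with a median of -0.79; miR-22-3p (-0.70), miR-212-3p (-0.22) and miR-222-3p (-0.04) were among those not called.

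Markers of other cell types were faint on both arrays. The smooth muscle and fibroblast list had 8 of 10 probes detected on day 1 and 7 in crypt, with summed intensities above empty spots of 155 and 110.2. Its defining pair was called lower: miR-143-3p, with 91.7 on day 1 and 109 in crypt (-1.63), and miR-145a-5p, with 89.2 and 94.4 (-1.25). The 5 other measured members, such as miR-199a-5p and miR-214-3p, were not called. For leukocytes, 5 of 6 probes were detected on each array, with sums of 67.0 on day 1 and 49.9 in crypt, and miR-146a-5p was called lower (-1.07), while miR-223-3p, a myeloid miRNA, was at 0.02. Endothelial miR-126a-3p was at -0.26, and the red blood cell miRNA miR-451a at -0.50. Of the endocrine list, miR-375-3p (148 on day 1 and 129 in crypt, -1.40) and miR-7a-5p (211 and 169, -1.29) were called lower and miR-7b-5p (-0.39) was not. Beside the calls in these lists, 6.2% of all tested miRNAs were called lower. The part of other cell types in the differences was not tested.

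The lists of miRNAs tied to imprinted loci held few calls. Of all tested miRNAs, 5.2% were called higher and 6.2% lower. A list of miRNAs from the Dlk1-Dio3 locus had 1 of 15 measured members called lower, with a median of -0.04. The list does not cover the locus: of its neighbours on chromosome 12, miR-3072-5p (2155 on day 1 and 157 in crypt, called in all 11 settings) and miR-665-5p (348 and 81.4, 1.15) were called higher, and miR-3072-3p (552 and 328, -1.11) was called lower. The Sfmbt2 group, the miRNAs named miR-297, miR-466, miR-467 and miR-669, had none of 37 called, with a median of 0.13. This group was taken by name, and the positions of its members in the genome were not checked. Another 20 of its members were detected on day 1 alone and none in crypt alone, beside 329 and 42 of all 1597 tested miRNAs. Its summed intensity above empty spots was 2630 on day 1 and 305 in crypt. The median ratio above empty spots was 7.24, beside 5.30 for all miRNAs detected on both arrays. Its median log2 difference lay above that of all miRNAs in each of the 11 settings, by 0.06 to 0.45. These probes were dim in crypt, and none of 409 miRNAs in the lowest tercile of mean level was called. miRNAs numbered from miR-6896 to miR-7094, many of which are spliced from short introns, differed by arm in their calls: 25 of 177 measured 5p arms were called higher and 5 lower, against none higher and 1 lower of 150 3p arms. Their medians did not differ in this way, at 0.07 for 5p and 0.10 for 3p arms, and the 3p arms were dimmer, with sums on day 1 of 10493 for 3p and 80769 for 5p.

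The arms of a hairpin could be set side by side in 283 hairpins with both arms measured, and 62 pairs were at least 2-fold apart. 5p arms made 30 higher calls and 3p arms 7; the arms of one hairpin were never both called higher. The medians over the 283 were 0.03 for 5p and 0.04 for 3p arms, so the imbalance lay in the calls and not in the middle of the distributions. miR-6931 had the widest gap, with its 5p arm at 4.84 and its 3p arm at 0.41, followed by miR-7036a, at 3.56 and 0.38. The reverse was seen in miR-204, whose 3p arm was at 2.08 and whose 5p arm, the one usually studied, was at 0.11, and in miR-149, at 1.27 (3p) and 0.14 (5p). The uncalled arms of these hairpins read 69.7 to 77.2 in crypt, near the limit of 69.5, and 98.0 to 183.8 on day 1. Differences of such dim probes are compressed, and whether the arms of a hairpin changed apart was not tested. Both arms were called lower in miR-192 and miR-215 alone, and miR-3072 and miR-5627 had arms called in opposite directions. Over all miRNAs detected on both arrays, 49 of 521 named 5p and 8 of 496 named 3p were called higher; for lower calls the numbers were 52 and 36.

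Grouping by seed gave uniform families only among the lower miRNAs. Of 26 seeds shared by at least 3 measured miRNAs, 4 had every member called lower: AAAGUGC, with 6 members of the miR-17 group and a median of -2.19, AAUACUG of miR-200b, miR-200c and miR-429 (-2.15), AGCACCA of miR-29 (-1.98) and GUAAACA of 3 miR-30 members (-1.72). The let-7 seed GAGGUAG had 9 of 10. The 4 uniform seeds and let-7 have median GC contents of 36.4 to 47.8%. Lower calls were common among all bright miRNAs of such composition, as given above. No seed had every member called higher. The highest medians were 1.40 for GGGCUGG, shared by miR-6940-5p, miR-762 and miR-7648-3p, and 1.14 for AGGAGAG, in which miR-8113 and miR-8119 were called and miR-7012-5p and miR-7057-5p were not. Members of a seed spread by 2.52 on the log2 scale in AGGAGAG and by 2.30 in AGCAGCA, the seed of miR-16-5p, and by 0.54 in AAAGUGC and 0.29 in GGGCUGA.

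The base composition of the mature sequences differed between the calls. RefSeq sequences were matched for 1612 of the 1897 miRNAs, 1043 of them detected on both arrays. Sequences called higher had a median GC content of 66.7%, those called lower 45.5%, and all 1043 had 56.5%. The median log2 difference was 0.45 for 73 miRNAs with at least 70% GC, of which 23 were called higher and 2 lower, and -0.37 for 62 miRNAs under 40% GC, of which none was called higher and 17 lower. The order was not particular to this pair of arrays: the same bins gave 0.45 and -0.34 for day 5 minus crypt, 0.27 and -0.13 for day 1 minus villus, and 0.12 and -0.23 for villus minus crypt, comparisons that share arrays. On day 1 against crypt the steps between were ordered, at -0.16 (40 to 50% GC), 0.02 (50 to 60%) and 0.15 (60 to 70%). Across miRNAs, Spearman's rho between GC content and difference was 0.47 (n = 1043), a description only, as all points share the same 2 arrays.

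Runs of G were common in the miRNAs that were higher, a feature chosen after the values were seen. A run of at least 4 G occurred in 44 of 73 sequences called higher, 3 of 88 called lower and 155 of all 1043 (14.9%); a run of at least 3 G occurred in 65 called higher, 13 called lower and 37.6% of all. Dim miRNAs, which were seldom called, are part of the 1043. In the top tercile of mean level, 44 of 105 miRNAs with a run of at least 4 G were called higher. There, 21 of 84 with a longest run of 3 G were called higher, 5 of 98 with 2 and 1 of 61 with 0 or 1. Each of the 12 largest differences upward has a run of at least 3 G. The sequences of miR-6931-5p and miR-6769b-5p, and both arms of miR-204 and miR-149, whose arms differ in this way, are shown with runs of at least 3 G in capitals.
miR-6931-5p: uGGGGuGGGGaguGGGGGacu
miR-6769b-5p: ccugguGGGuGGGGaagagc
miR-204-3p: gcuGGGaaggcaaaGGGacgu
miR-149-3p: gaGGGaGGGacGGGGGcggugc
miR-204-5p: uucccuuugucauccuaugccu
miR-149-5p: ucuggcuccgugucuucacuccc
In miR-204 and miR-149 the arm that holds such runs was the one called higher. Their other arms read 69.7 and 73.7 in crypt, near the limit of 69.5.

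**Figure D4:**
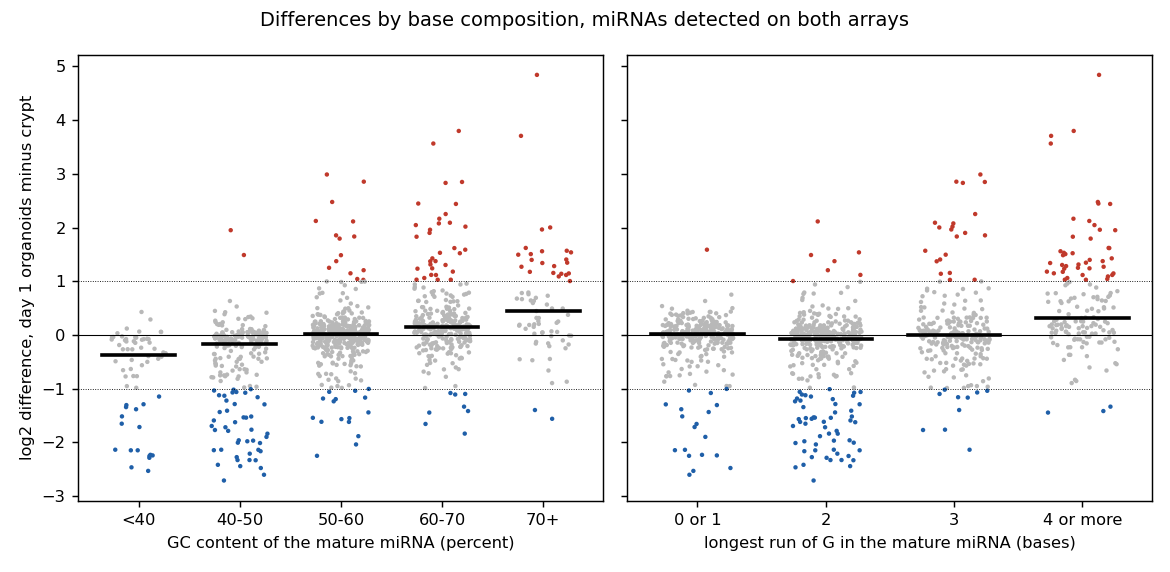
Log2 difference, day 1 organoids minus crypt (vertical), of the 1043 miRNAs detected on both arrays with a RefSeq sequence, by GC content in percent (left panel) and by the longest run of G in bases (right panel). Black bars are medians, which go up with GC content to 0.45 at 70% GC or more; red and blue points are called higher and lower.

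The composition pattern was widest among bright miRNAs. Among miRNAs in the top tercile of mean level, the median was 0.77 at 70% GC or more and -1.65 under 40% GC. Of the 182 calls, 175 came from the top tercile of those detected on both arrays: 81 of 83 higher and 94 of 99 lower. Under every setting the miRNAs with at least 70% GC had a higher median than those under 40%, with a gap of 0.81 in the main setting and 0.24 to 2.69 in the others. Settings that differ by a constant alone give the same gap and do not add to one another. Composition goes with miRNA number in these sequences, but a step with GC content was present within each number class. Among miRNAs numbered below 500 the median was 0.78 at 70% GC or more (n = 5) and -0.65 under 40% GC (n = 39), with 15 of the 39 called lower. Among those numbered from 1000 it was 0.37 (n = 61) and -0.12 (n = 19), with 20 of the 61 called higher.

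Set beside the other arrays, several of the day 1 values were shared in direction by day 5; both organoid comparisons use the same crypt array, so they are not independent. miR-711 was at 3.80 on day 1 and 3.40 on day 5 against crypt. miR-6931-5p was at 4.84 on day 1 and 2.23 on day 5, and miR-8119 at 2.25 and 2.55. In the lower group, miR-26a-5p was at -2.71 on day 1 and -2.32 on day 5, miR-17-5p at -2.44 and -1.46, and miR-192-5p at -2.48 and -1.67. In all, 4.37% of 1464 tested miRNAs were called higher and 5.12% lower on day 5 (9.49% either way). Against villus in place of crypt, the day 1 array gave 3.37% higher and 5.02% lower of 1632 (8.39% either way). The miR-200 family had 5 members called lower against crypt and none against villus, while let-7 had 9 and 8. A test of the difference is not possible with these arrays. Villus minus crypt gave 5 of 9 called lower in the miR-200 family (median -1.25) and 6 of 9 in miR-17-92 (-1.19). It gave 2 of 7 in the intestinal epithelium list and none of 10 in let-7. Among the largest upward, miR-6931-5p was at 1.53 and miR-711 at 1.65 in villus minus crypt, with miR-7036a-5p at 0.05 and miR-8099 at -0.80. Being lower than crypt was thus not particular to the organoid arrays for miR-200 and miR-17-92.

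The miRNAs detected on 1 of the arrays gave modest bounds. On day 1 alone, miR-125b-1-3p was at least 1.97-fold higher, miR-1912-5p at least 1.63-fold, miR-6392-5p at least 1.52-fold and miR-5625-5p at least 1.46-fold. In crypt alone, miR-7037-5p was at least 1.81-fold lower on day 1, miR-101a-3p at least 1.40-fold, miR-384-3p at least 1.37-fold and miR-3095-5p at least 1.34-fold. None reached 2-fold in the main setting, and the bounds move with the setting: miR-125b-1-3p was at least 2-fold higher in 6 of the 11 settings and miR-7037-5p at least 2-fold lower in 6. All 4 crypt-only miRNAs were slightly brighter on day 1 before scaling, by 1.02 to 1.10 times, and with cyclic loess the log2 difference of miR-7037-5p was -0.43. Of 6 listed 3p probes of the pluripotency-associated miR-290 and miR-302 clusters, none was detected on both arrays, with 3 detected on day 1 and 1 in crypt. Other arms of the miR-290 to miR-295 cluster on chromosome 7 were detected on both, and 2 of 6 were called higher: miR-291a-5p (272 on day 1 and 71.9 in crypt, 1.37) and miR-291b-5p (231 and 70.9, 1.21).

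**Figure D5:**
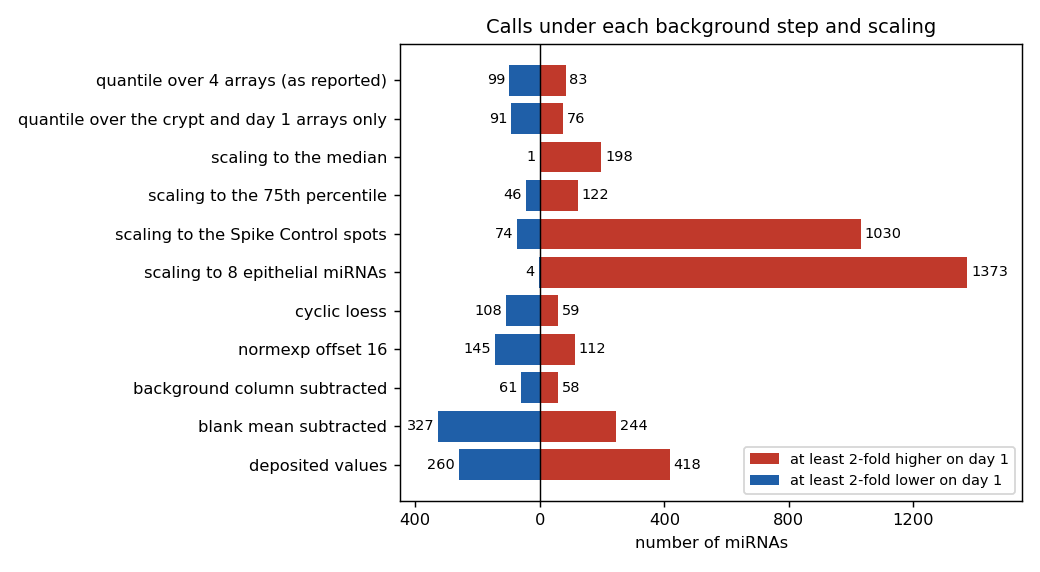
Number of miRNAs at least 2-fold higher (red, right) and at least 2-fold lower (blue, left) on day 1 than in crypt under the main setting and 10 other background steps and scalings. The main setting gave 83 and 99; scaling to the Spike Control spots gave 1030 and 74, and scaling to the median 198 and 1.

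The plot of calls by setting shows how far the balance of calls moved with the setting. Relative to the median of all miRNAs in the same setting, the medians of the intestinal epithelium, miR-200, miR-17-92, let-7, miR-30 and miR-29 lists lay below that of all miRNAs in 11 of 11 settings. So did those of the smooth muscle and fibroblast, leukocyte, endocrine, miR-181, miR-183 and Hox-locus lists, and of all 363 miRNAs numbered below 500, so the direction is not particular to epithelial or growth-related miRNAs. Statements on these lists are therefore relative ones: their signal was lower against the rest of the array on day 1 than in crypt.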

How the data were processed

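Intensities are the authors' deposited spot medians from 1-colour Cy5 arrays, in tables that join scans at several gains, per the file headers; the array's maker and scanner were not given there or in the labels. The authors' deposited value table holds straight-line rescalings of these intensities, with each array's median at 25 and blanks near 0, and served as an alternative. Here, 3 probes with a quality mark were left out, normexp (limma 3.58.1 in R 4.3.3, offset 50) was applied to all spots, and log2 values of 1897 probes were quantile normalised over 4 arrays. A miRNA was tested where it exceeded the trimmed blank mean plus 2 SD on either array; where on only one, the difference is a bound. The call is 2-fold, with no test. The steps were run on a simulated pair of arrays, with changes in both directions among brighter probes and a uniform rise in brightness. The simulation did not cover changes in faint probes or a rise that varied between probes. It does not show how the calls behave there. Named miRNAs are the 12 largest differences each way among the brighter 1-name miRNAs, the 4 largest bounds, members of 24 lists, the 5 lowest and 5 highest seed families, and those called in all 11 settings. The miRNAs and lists were chosen with earlier results of these data known. Background, scaling and detection alternatives are given in the closing section.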

Additional observations from a re-analysis of the deposited data

Results flagged for a closer look

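Outside the miRNA probes, 4 control probes without a given target gave signal above the limit of the empty spots on both arrays. They entered the spot-to-spot SD above, but no comparison of day 1 with crypt used their levels. S-Probe28 had a median intensity of 6197 on day 1 and 2886 in crypt, S-Probe26 had 1794 on day 1 and 960.3 in crypt, S-Probe27 had 531 and 319.7, and S-Probe1 had 105 and 83.2, each over 8 spots. All 4 were brighter on day 1.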

How the results depend on the processing

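Higher calls numbered 83 in the main setting, 198 scaled to the median, 1030 scaled to the Spike Control spots, 1373 scaled to 8 epithelial miRNAs (bounds included, of 1597 tested), 244 with the blank mean subtracted and 418 in the deposited values. Lower calls numbered 99, against 1 scaled to the median, 46 scaled to the 75th percentile, 4 scaled to the epithelial miRNAs, 61 with the background column subtracted, 327 with the blank mean subtracted and 260 in the deposited values. Quantile normalisation over the crypt and day 1 arrays only (76 and 91), cyclic loess (59 and 108) and a normexp offset of 16 (112 and 145) stayed within 1.5 times of both counts, and the 3 detection choices left both at 83 and 99. The gap in median log2 difference between miRNAs of at least 70% GC and those under 40% was 0.81 and kept its direction: 1.51 scaled to the median or the 75th percentile, 2.65 scaled to the spike or the epithelial miRNAs or in the deposited values, 0.42 with cyclic loess, 1.23 with offset 16, 0.24 with the background column subtracted, 2.69 with the blank mean subtracted, and 0.59 and 2.42 within the middle and top terciles of level. Scaling to the 8 epithelial miRNAs fixes these near 0 by its construction and turned several called log2 differences positive: 0.082 for miR-6412, 0.14 for miR-215-5p, 0.048 for miR-192-5p, 0.021 for miR-17-5p, 0.066 for miR-200b-3p, 0.33 for miR-200c-3p, 0.73 for miR-192-3p, 0.95 for miR-215-3p, 0.25 for miR-18a-5p, 0.83 for miR-92a-3p, 0.44 for miR-25-3p, 0.21 for let-7a-5p, 0.38 for let-7b-5p, 0.40 for miR-98-5p, 0.074 for miR-29a-3p, 0.21 for miR-30a-5p, 0.14 for miR-15a-5p, 0.47 for miR-27b-3p, 0.92 for miR-24-3p, 1.22 for miR-21a-5p, 1.11 for miR-31-5p, 0.38 for miR-375-3p, 0.60 for miR-7a-5p, 0.40 for miR-1195 and 0.59 for miR-7000-3p. List medians there became 0.73 for intestinal epithelium, 0.33 for miR-200 family, 0.021 for miR-17-92 cluster, 0.29 for let-7 family, 0.11 for miR-30 family, 0.14 for miR-15/16 family, 0.92 for miR-23/27/24 clusters, 0.84 for miR-183 cluster and 0.38 for endocrine cells. With the background column subtracted the values were 1.25 for let-7f-5p, 0.88 for miR-215-3p, 0.42 for miR-25-3p, 1.19 for let-7a-5p, 1.61 for let-7b-5p and 2.46 for miR-31-5p; that column correlated with the spot intensity, at 0.93 on day 1 and 0.96 in crypt. Scaled to the median they were 0.13 for miR-215-3p, 0.14 for miR-24-3p, 0.52 for miR-21a-5p and 0.35 for miR-31-5p, with 0.14 for miR-23/27/24 clusters as a list median. Scaled to the Spike Control spots the one that turned was 0.048 for miR-21a-5p. The cause of the remaining changes was not tested. No paired analysis was possible because each group has 1 array, and for the same reason no array could be left out and no slide term fitted. Most crypt signals lie close to the empty spots, so differences of dim miRNAs are compressed and a missed difference there cannot be seen.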
